A study of Saccharomyces cerevisiae with 12 samples.

Results

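The genes described here supply ubiquitin, attach it to proteins, remove it again and carry the ubiquitylated proteins to the proteasome in the budding yeast Saccharomyces cerevisiae. They are 45 genes, taken as every listed gene with a probe set that the array's annotation assigns to that gene alone. They comprise the polyubiquitin gene UBI4, the activating enzyme UBA1, 8 ubiquitin-conjugating enzymes, 2 conjugating enzymes of ubiquitin-like proteins, 5 HECT ligases with the adaptor BUL1, 2 RING ligases with the chain-elongating enzyme UFD2, 17 deubiquitinating enzymes with the inhibitor RFU1, and 6 genes of the CDC48 machinery. All 45 had such a probe set, 56 in all, out of 5656 genes with one, and 44 were among the 5368 genes tested. UBC11, a conjugating enzyme related to those of cell cycle ligases, was the member left out, because its probe set lay at the intensity floor on all 12 arrays.

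The arrays carried total RNA of 3 strains: TFIIH mutants called C403A and C406A, and wild type. Each strain was either exposed to 0.03% methyl methanesulfonate (MMS), an alkylating agent that damages DNA, for 30 minutes or left untreated, and each of the 6 combinations had 2 arrays. TFIIH is a general transcription factor that also serves nucleotide excision repair, and the allele names are those of cysteine-to-alanine changes in the RING finger of its subunit Ssl1, from knowledge of the study, since the labels name no subunit. The design asks what MMS does to expression in each strain and whether a mutant differs from wild type before or after it. The labels do not say whether the arrays of one combination stand for different cultures. The p-values therefore measure only the spread between these arrays, which may be technical.

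Ubiquitin is passed from an activating enzyme (E1) to a conjugating enzyme (E2) and then, with the help of a ligase (E3), to a target protein. Deubiquitinating enzymes take it off again and return it to the free pool, and the ATPase Cdc48 pulls marked proteins out of complexes and membranes on their way to the proteasome. In yeast UBI4 encodes a chain of ubiquitin repeats and is known as the source of extra ubiquitin under stress, whereas growing cells draw most of it from genes that fuse ubiquitin to ribosomal proteins.

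Values are probe set intensities on a linear scale after quantile normalization, which gives all arrays the same distribution, and changes are differences of log2 intensity with their standard error (SE). A change passed when limma's moderated test gave an adjusted p under 0.05 after Benjamini-Hochberg adjustment over all 5368 genes, and "rose" and "fell" are used of such changes alone. Where arrays are said not to overlap, this describes the values and is no test. With 2 arrays a side it is common without any true difference, and its share over all genes was not computed. Before normalization the array medians ran between 184 and 310.2. After it, arrays of one group correlated at 0.985 to 0.993 in log2 intensity across the 5368 tested genes. Ribosomal RNA probe sets were brightest on untreated C403A array 2, at a mean of 1775, and on untreated wild-type array 2, at 651, against 53.7 to 343 on the other 10 arrays. Without these 2 arrays, 11 members rose and 2 fell after MMS in C403A, 13 and 2 in C406A and 17 and 4 in wild type. The RNA came from whole cultures, in which a change of RNA per cell and a change in the share of cells holding it cannot be told apart.

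Exposure to MMS raised more of the ubiquitin genes than it lowered in each strain. In C403A, 13 of the 44 members rose and 1 fell, where 8.42% of all tested genes rose and 7.13% fell (15.6% in either direction). In C406A, 13 rose and 2 fell, against 12.7% and 11.2% of all tested genes (24.0% in either). In wild type, 21 rose and 3 fell, against 19.1% and 13.8% (33.0% in either). As shares of the members, 29.5% rose in C403A, 29.5% in C406A and 47.7% in wild type, so the rising share lay above that of all genes in each strain, while the falling shares of 2.27%, 4.55% and 6.82% lay below it.

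The median change of the members was 0.20 in C403A, 0.17 in C406A and 0.29 in wild type on the log2 scale, beside -0.00, 0.00 and 0.02 for all tested genes. Averaged over the 3 strains, 26 members rose and 6 fell, where 25.2% of all genes rose and 22.2% fell (47.4% in either direction), and the median change was 0.23, beside 0.00 for all genes. In every strain 10 of the 44 members rose (22.7%), against 5.81% of all tested genes, namely UBI4, UBC4, UBC8, UFD4, HUL5, NPL4, UFD1, SHP1, DOA1 and DSK2. UBP10 was the single member that fell in all 3 strains (2.27%), against 3.91% of all tested genes.

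The split between rising and falling members depended on how the arrays were put on one scale. With the intensities left as deposited, the median of all genes itself moved by 0.27 in C403A, 0.43 in C406A and 0.24 in wild type. Members then rose and fell in the numbers 8 and 0 in C403A, 24 and 0 in C406A, 15 and 1 in wild type, and 33 and 1 in the mean. Under the same scaling 6.67% of all genes rose in C403A, 28.4% in C406A, 13.6% in wild type and 49.0% in the mean, and between 0.149% and 1.78% fell. Scaled to the hybridization control probe sets, the median of all genes moved by -0.12, 0.25 and -0.09 in the same order of strains. The members' numbers were then 2 and 0 in C403A, 15 and 0 in C406A, 5 and 2 in wild type, and 17 and 2 in the mean. Those that still rose were UBI4 and UFD1 in C403A, and UBI4, DOA4, NPL4, UFD1 and DOA1 in wild type. Of all genes 1.41% rose and 2.51% fell in C403A, 16.4% and 1.10% in C406A, 5.88% and 9.35% in wild type, and 16.6% and 12.8% in the mean. Relative to the median of all genes the members' median stayed between 0.17 and 0.28 higher under each of these scalings and under median scaling.

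**Figure D1:**
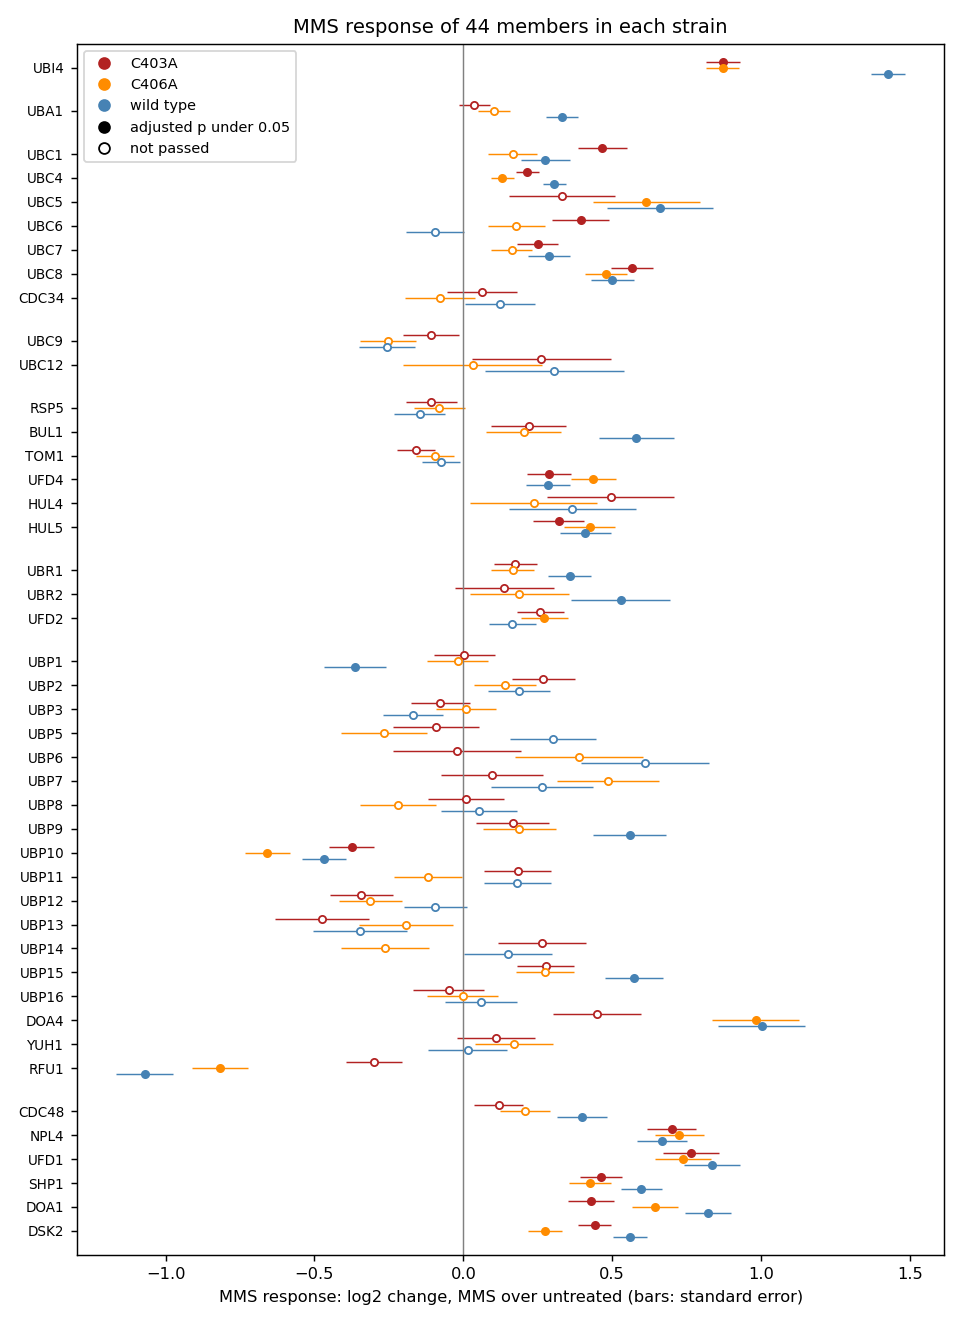
MMS response of the 44 tested members, drawn as the log2 change of treated over untreated intensity on the horizontal axis, with the members grouped by role down the page. Red, orange and blue points are C403A, C406A and wild type, bars are standard errors of the limma fit over 2 arrays a group, and filled points passed an adjusted p under 0.05. UBI4 stands at the right, between 0.87 and 1.43, RFU1 at the left, between -1.07 and -0.30, and the 6 genes of the CDC48 machinery at the bottom all lie right of 0.

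UBI4 had the largest rise of the members in each strain except C406A, where DOA4 rose by more. Its intensity was 3151 and 3000.4 on the MMS-treated arrays of C403A, against 1688 and 1670.0 on the untreated ones. In C406A it was 2597 and 2706 after MMS, against 1447 and 1454 without it. In wild type it was 2825 and 2856 after MMS, against 1013 and 1102 without it. Treated and untreated arrays did not overlap in any strain, and the untreated wild-type arrays were the lowest of the 12.

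In limma, the log2 change of UBI4 was 0.87 (SE 0.06, adjusted p = 2.23e-05) in C403A, 0.87 (SE 0.06, adjusted p = 2.49e-05) in C406A and 1.43 (SE 0.06, adjusted p = 8.43e-07) in wild type. These are 1.83-fold, 1.83-fold and 2.69-fold higher intensities. The mean response of 1.06 stood at rank 60 of the 5368 genes. UBI4's rise passed in all 3 strains under every alternative setting and with any 1 array left out.

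**Figure D2:**
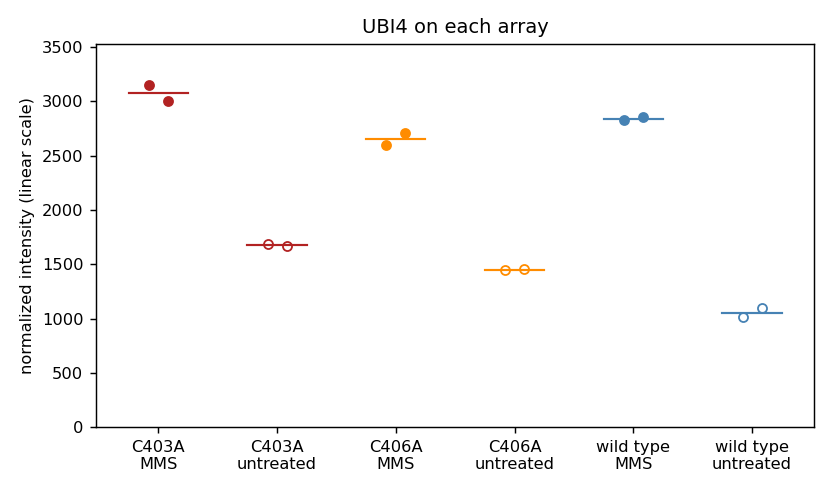
UBI4 intensity on each of the 12 arrays after quantile normalization, on a linear axis that starts at 0, by strain and treatment. Points are single arrays and lines the mean of the 2 arrays of a group. The 6 MMS-treated arrays lie between 2597 and 3151, and the untreated arrays between 1670.0 and 1688 in C403A, 1447 and 1454 in C406A, and 1013 and 1102 in wild type.

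The repeats encoded by UBI4 are nearly the same in sequence as the ubiquitin parts of RPL40A, RPL40B and RPS31, which fuse ubiquitin to ribosomal proteins, so that probes could hybridize to more than one of these RNAs. Of the 3 fusion genes, RPS31 alone had a probe set of its own in the annotation used. Its log2 change was 0.02 in C403A, 0.08 in C406A and -0.11 in wild type, and none of these passed (adjusted p = 0.869, 0.392 and 0.25 in limma).

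UBA1, the E1 that activates ubiquitin for all the conjugating enzymes, moved by much less than UBI4. Its intensity was 2877 and 2925 after MMS in C403A, against 2829 and 2825 untreated, and 2632 and 2553 in C406A, against 2454 and 2373. In wild type it was 3099 and 3102 after MMS, against 2575 and 2355 untreated. The rise passed in wild type, at 0.33 (adjusted p = 0.00132), but not in C403A, at 0.04 (adjusted p = 0.706), or C406A, at 0.10 (adjusted p = 0.192). It was lost in wild type when arrays were scaled to the hybridization controls (0.16, adjusted p = 0.492), and in the mean of the strains, where it was 0.16, also under median scaling (0.09, adjusted p = 0.146).

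Among the 7 tested ubiquitin-conjugating enzymes, 5 rose in C403A, 3 in C406A, 5 in wild type and 6 in the mean of the strains, and none fell. Of all tested genes 8.42%, 12.7%, 19.1% and 25.2% rose in the same order, and 7.13%, 11.2%, 13.8% and 22.2% fell. UBC8, the conjugating enzyme of fructose-bisphosphatase degradation, rose by similar amounts everywhere: 0.57 in C403A (adjusted p = 0.001), 0.48 in C406A (adjusted p = 0.00139) and 0.50 in wild type (adjusted p = 0.000675). Its intensity after MMS was 574 and 586 in C403A, 514 and 539 in C406A, and 494 on both wild-type arrays. The untreated arrays read 387 and 396 in C403A, 382 and 373 in C406A, and 358 and 341 in wild type, so that no treated array overlapped an untreated one. With hybridization controls UBC8 did not pass in limma in C403A (0.48, adjusted p = 0.16) or wild type (0.43, adjusted p = 0.126).

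UBC4 and UBC5 are a pair of near-identical E2s that mark short-lived and abnormal proteins, and probes for one may also bind RNA of the other. UBC5 read 957 and 744 after MMS in C403A, against 582 and 773 untreated, and here the arrays overlapped. It read 742 and 928 in treated C406A, against 581 and 505 untreated, and 644 and 665 in treated wild type, against 461 and 372 untreated. The log2 changes were 0.33 (adjusted p = 0.255), 0.61 (adjusted p = 0.0338) and 0.66 (adjusted p = 0.019), so that UBC5 rose in C406A and wild type.

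Both of these UBC5 calls rested on single arrays. In wild type leaving out MMS array 1 gave 0.68 (adjusted p = 0.0702), MMS array 2 gave 0.64 (adjusted p = 0.0771) and untreated array 2 gave 0.51 (adjusted p = 0.126), and leaving out the 2 arrays of brightest ribosomal RNA gave 0.50 (adjusted p = 0.0871). In C406A leaving out untreated array 1 gave 0.72 (adjusted p = 0.0718), untreated array 2 gave 0.51 (adjusted p = 0.177) and MMS array 2 gave 0.45 (adjusted p = 0.196).

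UBC4 read 7133 and 7016 after MMS in C403A, against 6079 and 6117 untreated, 5995 and 6079 in C406A, against 5415 and 5611, and 6321 and 6209 in wild type, against 5128 and 5014. It rose by 0.21 in C403A (adjusted p = 0.00678), 0.13 in C406A (adjusted p = 0.0369) and 0.31 in wild type (adjusted p = 0.000389), and the arrays did not overlap. These small changes depended on the scaling. Under median scaling they were 0.03 (adjusted p = 0.879), -0.06 (adjusted p = 0.663) and 0.10 (adjusted p = 0.401), and with hybridization controls the value for C403A was -0.08. In C406A the call was also lost without either of that strain's treated arrays (0.14 and 0.12, adjusted p = 0.0787 and 0.141), either of its untreated arrays (0.11 and 0.15, adjusted p = 0.206 and 0.0849) or C403A MMS array 1 (0.13, adjusted p = 0.0501). In C403A it was lost without that strain's MMS array 1 (0.20, adjusted p = 0.0516).

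UBC6 and UBC7 serve the degradation of proteins at the endoplasmic reticulum. UBC7 rose by 0.25 in C403A (adjusted p = 0.0398) and 0.29 in wild type (adjusted p = 0.011), and its change in C406A was 0.16 (adjusted p = 0.121). UBC6 rose by 0.39 in C403A (adjusted p = 0.0228), where it read 672 and 706 after MMS, against 503 and 546 untreated. Its changes in C406A and wild type, 0.18 and -0.10, did not pass (adjusted p = 0.21 and 0.487).

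UBC1, an E2 that extends ubiquitin chains, rose by 0.47 in C403A (adjusted p = 0.0059) and 0.28 in wild type (adjusted p = 0.0287), with 0.17 in C406A (adjusted p = 0.175). The calls of UBC6 in C403A and UBC7 and UBC1 in wild type were lost with 1 array left out. UBC6 in C403A stood at 0.43 (adjusted p = 0.0837) without MMS array 1, 0.36 (adjusted p = 0.117) without MMS array 2 and 0.33 (adjusted p = 0.112) without untreated array 1. In wild type, leaving out MMS array 2 gave 0.21 for UBC7 (adjusted p = 0.0761) and 0.18 for UBC1 (adjusted p = 0.187), and leaving out untreated array 2 gave 0.28 (adjusted p = 0.0534) and 0.29 (adjusted p = 0.0821). UBC1 in wild type also read 0.26 (adjusted p = 0.109) without untreated array 1, and in C403A 0.42 (adjusted p = 0.0507) without MMS array 1. UBC7 in C403A was lost with any of 9 arrays left out, at 0.18 (adjusted p = 0.234) without MMS array 1.

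CDC34, the E2 of the SCF cell cycle ligases, had changes between -0.08 and 0.12 in the 3 strains, and none passed. UBC9, which conjugates the ubiquitin-like protein SUMO, fell by 0.21 in the mean of the strains (adjusted p = 0.0112), although its change was 0.15 with the intensities as deposited, and passed in no single strain. UBC12, which conjugates Rub1 to cullins, changed by 0.20 in the mean and did not pass (adjusted p = 0.252).

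Of the 5 HECT ligases and BUL1, 2 rose in C403A, 2 in C406A, 3 in wild type and 4 in the mean of the strains, and 1 fell in the mean. The rising shares of all tested genes were 8.42% in C403A, 12.7% in C406A, 19.1% in wild type and 25.2% in the mean, where 22.2% fell. HUL5, a ligase that extends chains on proteins held at the proteasome, rose in every strain, by 0.32 in C403A (adjusted p = 0.0325), 0.42 in C406A (adjusted p = 0.00685) and 0.41 in wild type (adjusted p = 0.00537). UFD4, which ubiquitylates proteins with an uncleaved ubiquitin at their start, rose by 0.29 (adjusted p = 0.0301), 0.44 (adjusted p = 0.00304) and 0.28 (adjusted p = 0.0166) in the same order. For both genes every treated array read higher than every untreated array of its strain.

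Both genes passed in C406A, and HUL5 in wild type, with any 1 array left out, and the other calls did not. HUL5 in C403A was lost with any of 6 arrays left out, at 0.31 (adjusted p = 0.133) without its MMS array 2. UFD4 in C403A read 0.35 (adjusted p = 0.0566) without MMS array 1, 0.22 (adjusted p = 0.171) without MMS array 2 and 0.24 (adjusted p = 0.129) without untreated array 1. In wild type UFD4 read 0.24 (adjusted p = 0.099) without MMS array 1 and 0.26 (adjusted p = 0.073) without untreated array 1. With hybridization controls neither gene passed in C403A (0.24 for HUL5 and 0.21 for UFD4, adjusted p = 0.504 and 0.586) or wild type (0.35 and 0.22, adjusted p = 0.2 and 0.459).

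RSP5, the HECT ligase of membrane protein sorting, did not pass in any strain, with changes of -0.11, -0.08 and -0.15. Its adaptor BUL1 rose in wild type, by 0.58 (adjusted p = 0.00641), and changed by 0.22 in C403A (adjusted p = 0.286) and 0.20 in C406A (adjusted p = 0.274). Without untreated wild-type array 2 the BUL1 change in wild type was 0.46 (adjusted p = 0.0513). HUL4 rose in the mean of the strains alone, by 0.37 (adjusted p = 0.0342), and this was lost with any of 8 arrays left out, the highest adjusted p being 0.0947 without C403A MMS array 1 (0.29). With a floor at the 40th percentile it was 0.066 (adjusted p = 0.168), and without the 2 arrays of brightest ribosomal RNA it was 0.31 (adjusted p = 0.0761).

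TOM1, a HECT ligase of excess histones and ribosomal proteins, fell by 0.11 in the mean of the strains (adjusted p = 0.0334). This was 0.21 with the intensities as deposited, and the call was lost with any of 9 arrays left out, the highest adjusted p being 0.0875 without C403A MMS array 1 (-0.09). TOM1 had 11 probe sets in the annotation used, and they did not give one answer. Whether the 10 dimmer ones read RNA of TOM1 alone was not tested. Fitted one by one, 1 of the 10 dimmer ones fell by 0.46 in the mean (adjusted p = 0.00694) and by 0.78 in wild type (adjusted p = 0.0116). Another fell by 1.07 in C406A (adjusted p = 0.0238) and stood at -0.42 in the mean (adjusted p = 0.05005). In the mean 2 others stood at 0.23 (adjusted p = 0.537 and 0.521), and these lay above the floor on 10 and 3 arrays. A further 2 lay at the floor on all 12 arrays.

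UBR1 is the ligase of the N-degron pathway, which reads the first residue of a protein, and UBR2 is its relative that marks Rpn4, the transcription factor of proteasome genes. UBR1 rose by 0.36 in wild type (adjusted p = 0.00456), with 949 and 901 after MMS, against 720.2 and 723 untreated. Its changes were 0.17 in C403A and 0.17 in C406A (adjusted p = 0.142 and 0.128). UBR2 rose by 0.53 in wild type (adjusted p = 0.036), with 238 and 245, against 161 and 174, and changed by 0.14 and 0.19 in the mutants (adjusted p = 0.652 and 0.452).

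The UBR2 call in wild type was lost with any of 6 arrays left out, at 0.47 (adjusted p = 0.138) without untreated wild-type array 1 and 0.51 (adjusted p = 0.123) without wild-type MMS array 2. In the mean of the strains UBR2 rose by 0.28 (adjusted p = 0.035), a call lost with any of 9 arrays left out, the highest adjusted p being 0.0886 without C406A MMS array 2 (0.23). UFD2, an enzyme that lengthens existing chains, rose in C406A by 0.27 (adjusted p = 0.0353) and changed by 0.26 in C403A (adjusted p = 0.0567) and 0.16 in wild type (adjusted p = 0.145). Without any 1 of the 4 C406A arrays the UFD2 change there ranged between 0.22 and 0.32 and did not pass (adjusted p = 0.162 without MMS array 1, 0.0630 without MMS array 2, 0.0842 without untreated array 1 and 0.181 without untreated array 2).

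The deubiquitinating enzymes and RFU1 did not share one direction. Of these 18 genes, 0 rose and 1 fell in C403A, 1 rose and 2 fell in C406A, 3 rose and 3 fell in wild type, and 5 rose and 4 fell in the mean of the strains. Of all tested genes, 8.42% rose and 7.13% fell in C403A, 12.7% and 11.2% in C406A, and 19.1% and 13.8% in wild type. The shares of the 18 genes in the mean, 27.8% and 22.2%, lay near the 25.2% and 22.2% of all tested genes. The median change of the 18 in the mean was 0.03, beside 0.00 for all genes.

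DOA4 recovers ubiquitin from proteins sorted into endosomes, and RFU1 encodes an inhibitor of the Doa4 enzyme. DOA4 read 151 and 189.7 after MMS in C403A, against 116 and 132 untreated, 179 and 171 in C406A, against 96.6 and 81.5, and 215 and 188 in wild type, against 99.9 and 101. Treated arrays lay above untreated ones in each strain. The rise passed in C406A, at 0.98 (SE 0.15, adjusted p = 0.00147), and in wild type, at 1.0 (SE 0.15, adjusted p = 0.000807), and the change in C403A was 0.45 (SE 0.15, adjusted p = 0.0683). With a floor at the 40th percentile in place of the 20th, the C406A value was 0.24 (adjusted p = 0.115). Across the alternative settings the lowest DOA4 value was 0.44 in wild type. In the mean of the strains, where the change was 0.81, the lowest was 0.29.

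RFU1 was lower after MMS on every array. It read 416 and 409.8 in treated C403A, against 556 and 465 untreated, 377 and 371 in treated C406A, against 692 and 629, and 322 and 334 in treated wild type, against 682 and 697. The log2 change was -0.30 (SE 0.09, adjusted p = 0.0597) in C403A, -0.82 (SE 0.09, adjusted p = 0.000402) in C406A and -1.07 (SE 0.09, adjusted p = 5.57e-05) in wild type. DOA4 and its inhibitor thus passed in opposite directions in C406A and wild type, and in C403A both changes were smaller and missed the threshold. In C406A the RFU1 change was -0.34 with the intensities as deposited (adjusted p = 0.247) and -0.52 with hybridization controls (adjusted p = 0.0537).

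UBP10 removes ubiquitin from histone H2B, and it was the other member that fell strongly. It read 1511 and 1464 after MMS in C403A, against 2070.1 and 1798 untreated, 1332 and 1257 in C406A, against 2061 and 2024, and 1493 and 1422 in wild type, against 2086 and 1949. The change was -0.38 (adjusted p = 0.00972), -0.66 (adjusted p = 0.000361) and -0.47 (adjusted p = 0.00128), with no overlap in any strain. It stayed below 0 with the intensities as deposited but did not pass there (-0.09, -0.24 and -0.24, with adjusted p = 0.771, 0.307 and 0.422), and in C403A it was -0.35 (adjusted p = 0.0554) without MMS array 2. UBP8, the H2B deubiquitinase of the SAGA complex, changed by 0.01, -0.22 and 0.05, and none passed.

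UBP6 sits on the proteasome and trims chains from incoming proteins, and its account turned on 1 array. It read 1117 and 2065 on the 2 treated C403A arrays, against 1618 and 1469 untreated, while treated C406A read 1861 and 1784, against 1419 and 1364, and treated wild type 2175 and 2155, against 1502 and 1342. Over all arrays the changes were -0.02, 0.39 and 0.61, and none passed (adjusted p = 0.969, 0.219 and 0.0546). Without C403A MMS array 1 they were 0.43, 0.39 and 0.61 and all passed (adjusted p = 0.0333, 0.00745 and 0.000628). Without C403A MMS array 2 the value for C403A was instead -0.46 (adjusted p = 0.0187). Which of these 2 arrays was kept thus set the sign of the UBP6 change in C403A.

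UBP9 and UBP13 are duplicate genes, as are UBP7 and UBP11. UBP9 rose in wild type by 0.56 (adjusted p = 0.00685), where it read 92.2 and 103 after MMS, against 64.7 and 67.6 untreated, and changed by 0.17 in C403A and 0.19 in C406A (adjusted p = 0.415 and 0.3). Its second probe set lay at the floor on all arrays, and the mean of the 2 sets did not pass in wild type (0.28, adjusted p = 0.0887). UBP13 fell by 0.34 in the mean of the strains (adjusted p = 0.0126), with 0.02 when the intensities were left as deposited, and it passed in no single strain. The members of this pair thus had mean responses of opposite sign, 0.30 for UBP9 and -0.34 for UBP13.

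UBP7 was dim, between 46.2 and 87.9, and rose by 0.28 in the mean of the strains (adjusted p = 0.041). That call was lost with any of 9 arrays left out, the highest adjusted p being 0.107 without wild-type MMS array 1 (0.23). Its duplicate UBP11 changed by 0.08 in the mean and did not pass (adjusted p = 0.329).

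Of the remaining deubiquitinating enzymes, UBP15 rose in wild type by 0.57 (adjusted p = 0.00169) and UBP1 fell there by 0.36 (adjusted p = 0.0232). Without any of 3 wild-type arrays the UBP1 change did not pass, at -0.27 (adjusted p = 0.142) without untreated array 1, -0.36 (adjusted p = 0.0903) without MMS array 1 and -0.37 (adjusted p = 0.0768) without MMS array 2. UBP2, the partner that counters Rsp5, rose in the mean by 0.20 (adjusted p = 0.0219), a call lost without any of 4 arrays (at 0.18 and adjusted p = 0.0609 without C403A MMS array 1). UBP12 fell in the mean by 0.25 (adjusted p = 0.00773), with 0.10 when the intensities were left as deposited. UBP3, UBP5, UBP14, UBP16 and the C-terminal hydrolase YUH1 did not pass in any strain or in the mean, with mean responses between -0.08 and 0.10.

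**Figure D3:**
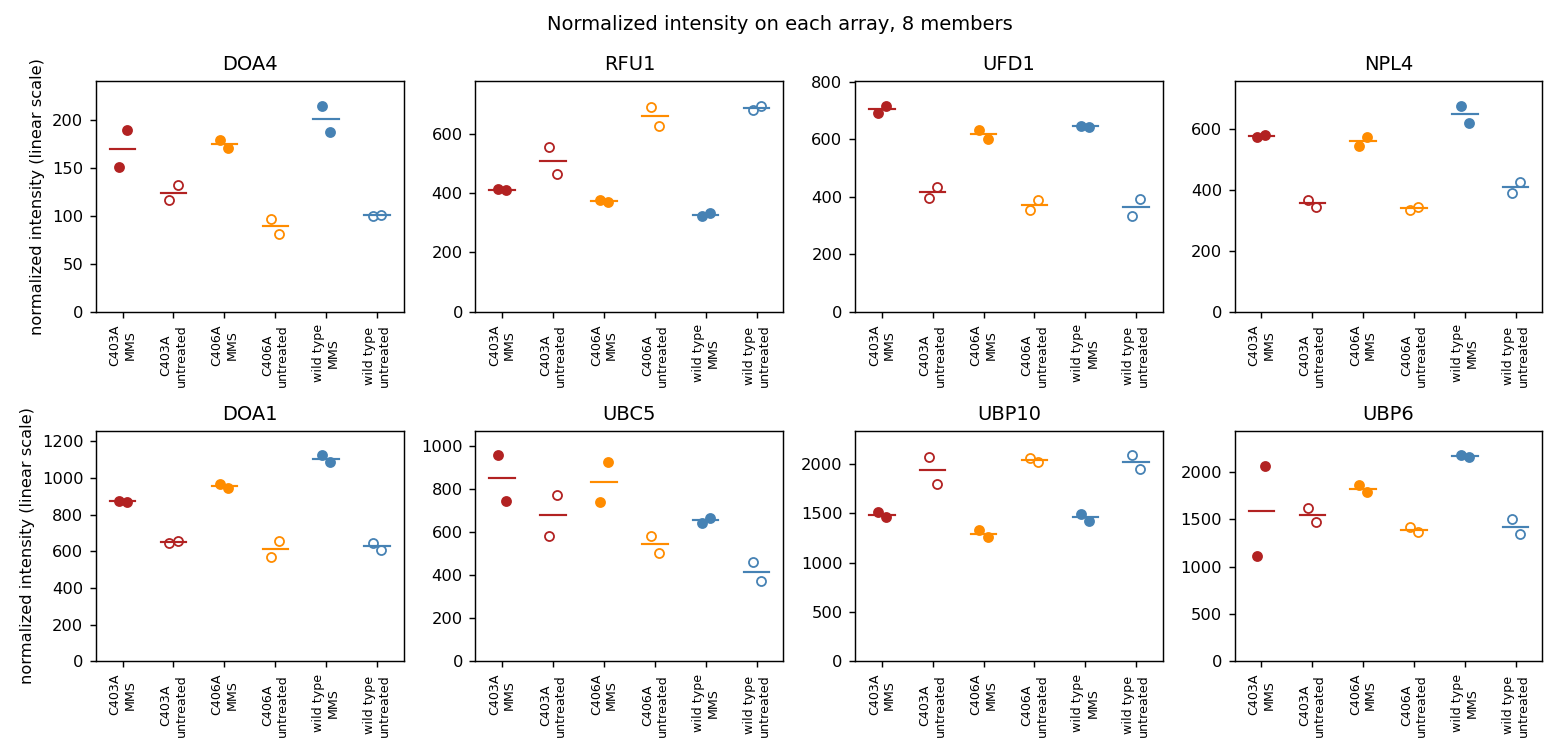
Intensity of 8 members on each of the 12 arrays after quantile normalization, on linear axes that start at 0. Points are single arrays, filled after MMS and open without it, and lines are the mean of the 2 arrays. RFU1 and UBP10 are lower on treated arrays in each strain, DOA4, UFD1, NPL4 and DOA1 are higher, and the treated C403A arrays of UBP6 lie apart at 1117 and 2065.

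All 6 genes listed here as CDC48 machinery, which include the shuttle DSK2, rose in the mean of the strains, as did all 3 of UBR1, UBR2 and UFD2. Of the 6, 5 rose in C403A, 5 in C406A and 6 in wild type. The rising shares of all tested genes were 25.2% in the mean, 8.42% in C403A, 12.7% in C406A and 19.1% in wild type. The median change of the 6 genes in the mean was 0.56. UFD1 and NPL4 form the adaptor through which the Cdc48 ATPase grips ubiquitin chains, and both rose by nearly the same amount in each strain.

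UFD1 read 693 and 717 after MMS in C403A, against 397 and 434 untreated, 634 and 602 in C406A, against 355 and 387, and 647 and 642 in wild type, against 333 and 392. Its log2 change was 0.76 (SE 0.10, adjusted p = 0.001), 0.74 (SE 0.10, adjusted p = 0.000722) and 0.84 (SE 0.10, adjusted p = 0.000218). NPL4 read 573 and 581 in treated C403A, against 367 and 344, 545 and 573 in treated C406A, against 333 and 343, and 675 and 619 in treated wild type, against 389 and 426. Treated and untreated arrays were well apart for both genes. The NPL4 changes were 0.70 (adjusted p = 0.000804), 0.72 (adjusted p = 0.000381) and 0.67 (adjusted p = 0.000328), and in C403A the value with hybridization controls was 0.62 (adjusted p = 0.0698).

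SHP1, a Cdc48 cofactor with a UBX domain, read 2710.0 and 2679 after MMS in C403A, against 1833 and 2087, 2439 and 2237 in C406A, against 1729 and 1749, and 2788 and 2665 in wild type, against 1817 and 1786. It rose by 0.46, 0.43 and 0.60 (adjusted p = 0.00262, 0.0023 and 0.000237). DOA1, a Cdc48 adaptor needed to keep the free ubiquitin pool filled, read 876 and 869.8 in treated C403A, against 643 and 655, 968 and 943 in treated C406A, against 569 and 657, and 1122 and 1088 in treated wild type, against 646 and 606. It rose by 0.43 (adjusted p = 0.00663), 0.64 (adjusted p = 0.000496) and 0.82 (adjusted p = 7.78e-05). For SHP1 and DOA1, too, no treated array overlapped an untreated one of its strain. With hybridization controls SHP1 did not pass in C403A (0.30, adjusted p = 0.302) or wild type (0.44, adjusted p = 0.0621), nor DOA1 in C403A (0.33, adjusted p = 0.272).

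DSK2, a shuttle that carries ubiquitylated proteins to the proteasome, rose by 0.44 in C403A (adjusted p = 0.00118), 0.27 in C406A (adjusted p = 0.00771) and 0.56 in wild type (adjusted p = 0.000114). In C406A it was 0.17 under median scaling (adjusted p = 0.132) and 0.27 without untreated C406A array 2 (adjusted p = 0.0507). With hybridization controls DSK2 did not pass in C403A (0.20, adjusted p = 0.43) or wild type (0.38, adjusted p = 0.0583). CDC48 itself rose in wild type alone among the strains, by 0.40 (adjusted p = 0.00545), with 0.12 in C403A (adjusted p = 0.393) and 0.21 in C406A (adjusted p = 0.104). This rise was lost under median scaling (0.21, adjusted p = 0.136), as was that of CDC48 in the mean of the strains (0.24, against 0.07 and adjusted p = 0.362 under median scaling and 0.10 and adjusted p = 0.354 with hybridization controls), and whether it differed between strains was not shown, since the differences from wild type of -0.28 in C403A and -0.19 in C406A did not pass (adjusted p = 0.284 and 0.692).

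Untreated, C403A differed from wild type at 8 members, of which 7 were higher and 1 was lower, where 9.17% of all tested genes were higher and 4.97% lower (14.1% in either direction). UBI4 had the smallest p of them: with 1688 and 1670.0 in C403A, against 1013 and 1102 in wild type, the difference was 0.67 (SE 0.06, adjusted p = 0.000246), or 1.59-fold. Untreated C406A, with 1447 and 1454, was higher than wild type at UBI4 as well, by 0.46 (SE 0.06, adjusted p = 0.00436). UBI4 was the single member that passed there, 1 of 44, where 1.83% of all genes were higher and 0.876% lower (2.70% in either direction). Both mutants were set against the same pair of untreated wild-type arrays.

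These UBI4 differences held with median scaling but not with every scaling. In C403A the difference was 0.43 with hybridization controls (adjusted p = 0.0765), and in C406A it was 0.14 (adjusted p = 0.481) there and 0.23 with the intensities as deposited (adjusted p = 0.662). The C406A call was also lost without untreated C406A array 2 (0.45, adjusted p = 0.0511). Without the 2 arrays of brightest ribosomal RNA the C403A difference was 0.74 (adjusted p = 0.00475).

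Of the 6 other members that were higher in untreated C403A, 3 were conjugating enzymes. UBC4 was higher by 0.27 (adjusted p = 0.00288), UBC7 by 0.28 (adjusted p = 0.026) and UBC5 by 0.70 (adjusted p = 0.0317). UBA1 was higher by 0.20 (adjusted p = 0.0359), UBP11 by 0.43 (adjusted p = 0.0332), with 288 and 286 against 212 and 213, and DSK2 by 0.22 (adjusted p = 0.0332). RFU1 was lower, with 556 and 465, against 682 and 697, a difference of -0.44 (adjusted p = 0.0159). With hybridization controls the UBA1 difference was -0.03.

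With 1 array left out at a time, the UBI4 and UBC4 calls passed in all 12 cases, UBC5 in 10, RFU1 in 9, UBC7 and UBP11 in 8 each, DSK2 in 6 and UBA1 in 4. Without the 2 arrays of brightest ribosomal RNA, UBI4 alone of the 8 passed, and the values were 0.25 for UBC4 (adjusted p = 0.0595), 0.33 for UBC5 (adjusted p = 0.434) and -0.29 for RFU1 (adjusted p = 0.181). The number passing was 2 without untreated C403A array 2, 2 without untreated wild-type array 2, 4 without untreated wild-type array 1 and 5 without untreated C403A array 1. Without untreated C403A array 2 the UBC5 difference was 0.49 (adjusted p = 0.173) and the RFU1 difference -0.31 (adjusted p = 0.0768).

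After MMS, UBI4 did not differ detectably between the strains. C403A minus wild type was 0.11 (95% interval -0.01 to 0.24, adjusted p = 0.223) and C406A minus wild type -0.10 (95% interval -0.23 to 0.03, adjusted p = 0.348). Treated C403A differed from treated wild type at 10 members, 7 higher and 3 lower, where 7.47% of all genes were higher and 6.09% lower (13.6% in either direction).

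The higher ones were UBC1 by 0.39 (adjusted p = 0.014), UBC4 by 0.18 (adjusted p = 0.0183), UBC6 by 0.41 (adjusted p = 0.0232), UBP11 by 0.43 (adjusted p = 0.0327), UFD2 by 0.29 (adjusted p = 0.0433), RFU1 by 0.33 (adjusted p = 0.0457) and UBC7 by 0.24 (adjusted p = 0.0461). The lower ones were DOA1 by 0.34 (adjusted p = 0.0197), UBR1 by 0.30 (adjusted p = 0.0249) and UBR2 by 0.60 (adjusted p = 0.0407). UBC1 read 3282 and 3077 in treated C403A, against 2259 and 2588 in treated wild type, and UBR1 read 745 and 756, against 949 and 901. RFU1 thus stood above wild type in treated C403A, with 416 and 409.8 against 322 and 334, and below it in untreated C403A.

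The calls in treated C403A depended on single arrays, some of them from groups outside the comparison. With any 1 array left out the RFU1 difference lay between 0.31 and 0.36, and its call was lost in most of these fits. The number of members that passed was 0 without wild-type MMS array 1, 1 without C403A MMS array 1, 2 without wild-type MMS array 2 and 2 without C403A MMS array 2, and 7 without the 2 arrays of brightest ribosomal RNA. Under hybridization controls UBC4 stood at -0.08 and UBC7 at -0.03.

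Treated C406A differed from treated wild type at 2 members, both lower, where 2.72% of all genes were higher and 1.81% lower (4.53% in either direction). UBA1 read 2632 and 2553 in treated C406A, against 3099 and 3102, a difference of -0.26 (adjusted p = 0.029). DSK2 read 3633 and 3316, against 4139 and 4192, a difference of -0.26 (adjusted p = 0.0335). Neither passed under median scaling (-0.17 and -0.18, adjusted p = 0.302 and 0.241). Neither passed with any 1 of wild-type MMS array 1, wild-type MMS array 2, C406A MMS array 2 or either untreated C406A array left out, where adjusted p ran between 0.0563 and 0.209. UBA1 was lost without C406A MMS array 1 as well (adjusted p = 0.0501).

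**Figure D4:**
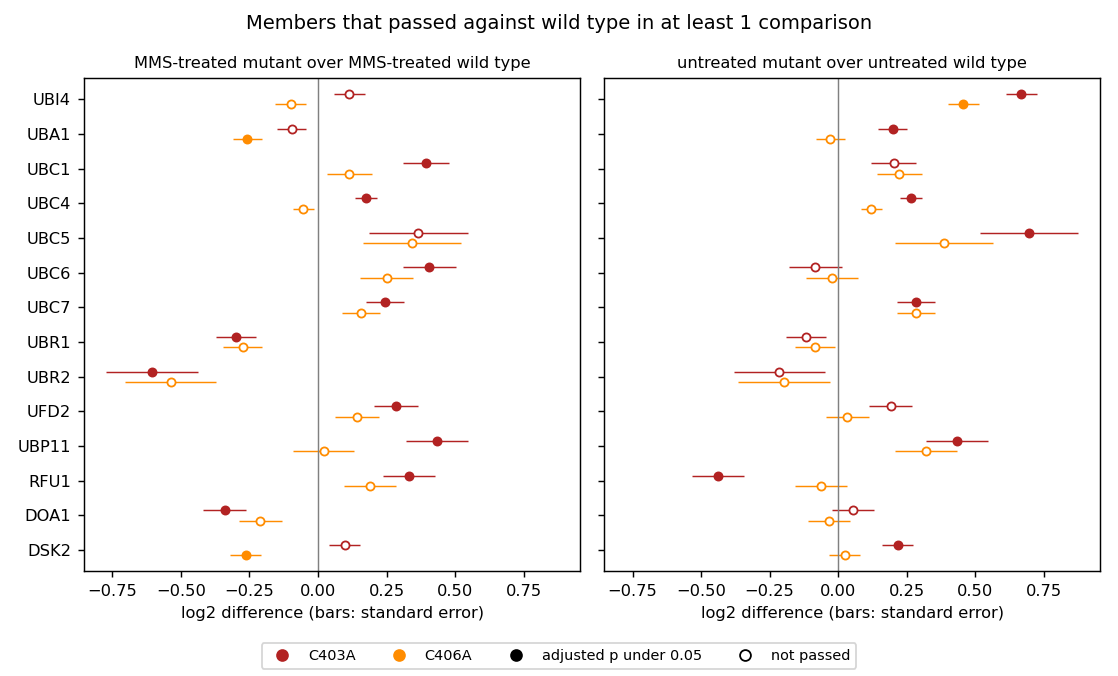
Difference of each mutant from wild type at the 14 members that passed in at least 1 such comparison, on the log2 scale, after MMS on the left and untreated on the right. Red points are C403A and orange points C406A, bars are standard errors, and filled points passed an adjusted p under 0.05. UBI4 lies at 0.67 and 0.46 in the untreated panel and at 0.11 and -0.10 in the treated one, and RFU1 of C403A lies on opposite sides of 0 in the panels.

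Whether the response to MMS itself differed between a mutant and wild type was tested as an interaction, the MMS response of the mutant minus that of wild type. In C403A 2 members passed, 1 in each direction, where 0.987% of all genes passed, 0.317% with a higher and 0.671% with a lower response. The UBI4 response was smaller in C403A than in wild type by 0.55 on the log2 scale (95% interval -0.73 to -0.37, adjusted p = 0.0218). The RFU1 response was less negative in C403A than in wild type, a difference of 0.77 (95% interval 0.47 to 1.07, adjusted p = 0.0336).

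Both calls were close to the threshold. The UBI4 interaction was -0.49 (adjusted p = 0.052) without untreated wild-type array 1, -0.57 (adjusted p = 0.0931) without wild-type MMS array 1 and -0.52 (adjusted p = 0.0633) without C403A MMS array 2. The RFU1 interaction missed the threshold with any of 11 of the 12 arrays left out, with values between 0.64 and 0.80 and adjusted p between 0.0547 and 0.11, and it passed without untreated C403A array 1 (0.90, adjusted p = 0.0172). Without the 2 arrays of brightest ribosomal RNA neither passed, at -0.63 for UBI4 (adjusted p = 0.0621) and 0.63 for RFU1 (adjusted p = 0.109). Neither passed with the intensities as deposited (-0.50 and 0.79, adjusted p = 0.9999 for both), with hybridization controls (-0.58 and 0.71, adjusted p = 0.616 and 0.638) or with the compared groups alone (adjusted p = 0.0776 and 0.101).

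In C406A no member and no other gene passed as an interaction (0.00% of 5368 genes in limma), while 6 members and 451 genes had an unadjusted p under 0.05. The UBI4 value there was -0.56 (95% interval -0.74 to -0.38, adjusted p = 0.0914), close to that of C403A. With no filter on dim genes it passed (adjusted p = 0.0438). The DOA4 interactions were -0.55 in C403A (95% interval -1.02 to -0.09, adjusted p = 0.227) and -0.02 in C406A (95% interval -0.49 to 0.45, adjusted p = 0.992). Because both mutants were compared with the same wild-type arrays, their interactions are not independent of each other.

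Other genes of the ubiquitin pathway, 109 in 10 lists, gave a wider setting. Of the 105 tested, 41 rose and 4 fell in the mean of the strains (39.0% and 3.81%), where 25.2% of all genes rose and 22.2% fell. The rising shares of the other RING ligases (28.6%), the cullin ligases and F-box proteins (30.0%) and the anaphase-promoting complex (26.7%) lay near that of all genes. The list of other ubiquitin receptors and shuttles had 5 of 5 rising, with DDI1, a shuttle with a protease fold, at 1.01 (adjusted p = 7.6e-07) and CUE5, a receptor that links ubiquitin to autophagy, at 0.56 (adjusted p = 1.01e-05). Among other Cdc48 cofactors and deubiquitinating enzymes, 6 of 11 rose, with UBX3 at 0.89 (adjusted p = 2.55e-05) and UBX5 at 0.87 (adjusted p = 3.94e-06).

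Among other Rsp5 adaptors, 7 of 14 rose and 1 fell, with SSH4 at 1.19 (adjusted p = 0.000658), ROD1 at 0.68 (adjusted p = 0.000596) and CSR2 at -0.35 (adjusted p = 0.0182). Of the other conjugating enzymes 2 of 4 rose, UBC13 by 0.33 (adjusted p = 0.000696) and MMS2 by 0.19 (adjusted p = 0.0106), which together build the chains of post-replication repair. The other RING ligases had 6 of 21 rising, with RAD5 of the same repair pathway at 0.57 (adjusted p = 0.000539) and ASI3 of the inner nuclear membrane at 0.41 (adjusted p = 0.000103).

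Of the cullin ligases and F-box proteins 6 of 20 rose, with ULA1, a part of the Rub1 activating enzyme, at 0.67 (adjusted p = 1.28e-05) and CDC53, the cullin of SCF, at 0.63 (adjusted p = 2.11e-05). The anaphase-promoting complex had 4 of 15 rising and 3 falling, with APC4 at 0.67 (adjusted p = 0.00242), MND2 at 0.30 (adjusted p = 0.0297), CDC20 at -0.50 (adjusted p = 0.000111) and CDC26 at -0.25 (adjusted p = 0.0106). In the SUMO pathway 1 of 7 rose, AOS1 by 0.30 (adjusted p = 0.00248), and the list of ubiquitin fused to ribosomal proteins had 0 of 1.

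Transcription factors known to act on stress and proteasome genes formed the last list, of which 4 of 7 rose in the mean. YAP1, the factor of oxidative stress genes, changed by 0.81 (adjusted p = 3.63e-06), HSF1, the heat shock factor, by 0.51 (adjusted p = 5.03e-05), RPN4 by 0.50 (adjusted p = 2.63e-05) and PDR1, a factor of drug resistance genes, by 0.23 (adjusted p = 0.0358). YAP1, HSF1 and RPN4 rose in each of the 3 strains.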

How the data were processed

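The values used are the probe set intensities the authors deposited, read from 1 matrix of all 12 arrays and 9335 probe sets. They are linear values per the file headers. The sources used here do not name the software or scaling behind them. Of the values, 8.95% lay below 0. Because array medians differed 1.69-fold, over the limit of 1.5, intensities of the non-control probe sets were quantile normalized, raised to a floor at their 20th percentile (34.5) and taken to log2. Each gene was read from its brightest probe set with 1 gene symbol (6504 probe sets had 1 gene, 328 several and 2503 none), and the 288 genes above the floor on fewer than 2 arrays were left out. limma 3.58.1 (R 4.3.3) fitted 6 group means to all 12 arrays, with trended variances, 6 residual degrees of freedom and Benjamini-Hochberg adjustment over 5368 genes. Groups came from the sample titles. The labels number no replicates, so arrays 1 and 2 follow the listing order. The labels hold a running number that goes strain by strain and, within each strain, from untreated to MMS-treated arrays. What it counts is not said. If it is the order of handling or scanning, neither strain nor treatment can be told apart from that order. With 2 arrays a group, their number limits the precision.

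The members, the lists and the tests were chosen with earlier results of these data known. Members named by rule are UBI4, UBA1, the 10 passing members of largest mean response, and 3 duplicate pairs. So are up to 5 members of smallest p in each comparison with wild type. From each other list up to 2 of the largest passing changes each way are named. Array values are not printed for all of these genes. Others named for the dependence of their calls, such as UBP6, were chosen after their values were seen. The alternatives were median scaling, no normalization, scaling to 9 hybridization control probe sets, other floors, no filter, averaging the probe sets of a gene, array weights, no variance trend, a fit of the compared groups alone, a minimum change of 1.5-fold, and leaving out the 2 arrays of brightest ribosomal RNA or each array in turn. The code was tested on simulated data. Figures were drawn with matplotlib 3.10.9 (Python 3.11.15).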

Additional observations from a re-analysis of the deposited data

Results flagged for a closer look

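Among the members, 2 responses to MMS differed between C403A and wild type by the test of the difference itself. UBI4 rose by 0.87 in C403A and 1.43 in wild type, and the difference was -0.55 (limma, adjusted p = 0.0218), with all 4 treated arrays above all 4 untreated arrays. RFU1 changed by -0.30 in C403A and -1.07 in wild type, and the difference was 0.77 (limma, adjusted p = 0.0336). For both genes the untreated C403A arrays lay on the treated side of the untreated wild-type arrays, at 1688 and 1670.0 against 1013 and 1102 for UBI4 and at 556 and 465 against 682 and 697 for RFU1. Ribosomal RNA signal was highest on untreated array 2 of both strains, and its part in these differences was not tested beyond leaving those arrays out, when adjusted p was 0.0621 for UBI4 and 0.109 for RFU1. Neither difference passed with the intensities as deposited, with hybridization controls or with the compared groups alone. Groups of 2 arrays are too small for a test of single arrays that stand apart.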

How the results depend on the processing

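No paired analysis was possible because the labels number no replicates. Over the 24 alternatives, 2068 of 2589 values of passing members kept direction and call, 512 lost the call and 9 turned sign. The reversals were UBC4 in C403A (-0.082, hybridization controls) and C406A (-0.059, median scaling); TOM1 0.21, UBC9 0.15, UBP12 0.10 and UBP13 0.017 in the mean response as deposited; and, with hybridization controls, UBA1 -0.030 in untreated C403A against wild type, and UBC4 -0.079 and UBC7 -0.029 in treated C403A against wild type. The cause was not tested.

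Counts of members passing moved as follows, from the numbers in the report. As deposited: in C403A 8 rose and 0 fell, in C406A 24 and 0, in wild type 1 fell, in the mean 1 fell, and against wild type 1 passed in untreated C403A, 0 in treated C403A, 0 in C406A under either treatment and 0 in the C403A interaction. With hybridization controls: 2 rose and 0 fell in C403A, 0 fell in C406A, 5 rose in wild type, 17 rose and 2 fell in the mean, and 1, 5, 0, 0 and 0 passed in the same comparisons. With the compared groups alone, which leaves fewer arrays to estimate the spread, 3 rose and 0 fell in C403A, and 0 passed in any comparison with wild type or in the C403A interaction. A 1.5-fold minimum left 3 rising and 0 falling in C403A, 6 rising in C406A, 7 rising and 1 falling in wild type, 5 rising and 1 falling in the mean, and 2, 1, 0, 0 and 1 passing in those comparisons. Array weights left 3 in untreated C403A, median scaling and no variance trend 0 each in treated C406A, and no filter added 1 to the C406A interaction. Without the 2 arrays of brightest ribosomal RNA, 2 fell in C403A, and 1 passed in untreated C403A, 1 in treated C406A and 0 in the C403A interaction.

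With 1 array left out, 8 to 14 members rose and 1 to 3 fell in C403A, 9 to 14 and 2 to 3 in C406A, 17 to 22 and 2 to 4 in wild type, and 21 to 25 and 5 to 6 in the mean. Between 2 and 11 passed in untreated C403A, 0 and 11 in treated C403A, 0 and 1 in untreated C406A, 0 and 3 in treated C406A, 0 and 2 in the C403A interaction and 0 and 1 in the C406A interaction. The lowest count of rises in C403A was without its MMS array 1. With 2 arrays a group, small changes of dim genes such as UBP7 lie at the limit of what these arrays resolve.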

Other observations

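BUL1 and DSK2 are neighbours in the RefSeq annotation, and both were higher after MMS in wild type, at 0.58 and 0.56 (limma, adjusted p = 0.00641 and 0.000114). In C403A the values were 0.22 and 0.44 (adjusted p = 0.286 and 0.00118), and in C406A 0.20 and 0.27 (adjusted p = 0.274 and 0.00771). RAD6, the conjugating enzyme of post-replication repair and histone H2B, changed by -0.28, -0.02 and 0.08 in C403A, C406A and wild type, and its partner RAD18 by -0.08, -0.07 and 0.03, and none of these passed (adjusted p between 0.0708 and 0.906 for RAD6). UBC12 read 126 and 74.1 on the treated C406A arrays, a wider spread than its untreated arrays of 103 and 87.2.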
